A study of Mus musculus with 2 samples.

Results

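The mRNAs of 6 members of the Ly6 family of surface antigens, *Ly6c2*, *Ly6c1*, *Ly6a*, *Ly6e*, *Ly6i* and *Ly6d*, were followed in CD45+ cells of the mouse heart 1 week after sham surgery or transverse aortic constriction (TAC), which narrows the aorta and loads the left ventricle. The members were taken by their gene symbols, and all 6 were found among the 27809 genes of the count matrix. Ly6 proteins are small, cysteine-rich proteins held on the cell surface by a lipid anchor, and antibodies to them are in wide use to tell leukocytes apart. Ly6C, encoded by *Ly6c1* and *Ly6c2*, marks the classical, inflammatory monocytes that enter injured tissue from the blood, and its level drops as these cells become patrolling monocytes or macrophages. Several genes of the family, *Ly6a* and *Ly6e* among them, are known to respond to interferons.

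Cells came from male mice, 8 weeks old and labelled C57BL/6N, in 5 groups, namely WT sham, CD3e-/- sham, WT TAC, CD3e-/- TAC and WT mice given an antibody to CD8 around TAC, labelled CD8+T cell-depleted TAC, and values follow this order where no group is named. CD3e-/- mice lack the CD3 epsilon chain in every cell from birth and therefore lack mature T cells, whereas the antibody was injected on the day of surgery and again during the week after it. All groups share the digestion of the heart and the magnetic selection for CD45. The cells of each group carried a hashtag and were sequenced in 1 pooled library by TAS-Seq, in which the RNA of single cells is barcoded in microwells, so each group was 1 sample. The number of mice behind it is not given in the sources used here, and no test was made, so that every comparison describes these cells alone. After filters, 1000, 835, 1615, 919 and 894 cells remained, with a median of 75442 to 117788 reads per cell, and no barcode was shared between hashtags. Levels are reads of a gene per 1000000 reads (CPM), from the summed reads of the cells named, and they are compared between cells and not between genes. Ranges in parentheses are exact 95% intervals, Poisson for reads and Clopper-Pearson for shares of cells, which cover counting error only and understate it, since several reads can come from 1 molecule.

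As a check of the labels, *Cd3e* was at 17.8, 3.73, 10.8, 5.64 and 13.6 CPM over all cells, thus lower but not 0 in CD3e-/- mice, while the share of cells with a read was 6.90%, 5.03%, 6.38%, 9.03% and 5.70%. *Cd3g*, another chain of the same receptor, was at 45.6 and 17.5 CPM in WT sham and WT TAC and at 0.555 and 0.0661 CPM in the CD3e-/- groups. *Cd8a* was read in 9 of 1000 cells in WT sham, 16 of 1615 cells in WT TAC and 8 of 894 cells in the group labelled CD8+T cell-depleted TAC, and the shares were 0.900%, 0.991% and 0.895%. A loss of CD8+ cells was therefore not detectable at this depth, and this group is named by its label throughout.

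*Ly6c2* and *Ly6c1* need a word before their values, because their sequences are nearly the same. Over the 396 coding bases of each, 387 were identical and 9 differed, which is 97.7% identity. *Ly6a* and *Ly6i* had 86.4% identity to each other and 82.1% to 82.5% to the *Ly6c* genes, and *Ly6e* and *Ly6d* had at most 56.4% to any other member, in global alignments of the GENCODE coding sequences (build NCBIM37). Of the stretches of 50 bases in the *Ly6c2* transcript, 33.7% were found unchanged in the *Ly6c1* transcript, against 0.402% in *Ly6a*. The first 120 coding bases hold 6 of the 9 differences and are shown here, 5′ to 3′, with the bases that differ in capitals, since the split of reads between this pair rests on such bases.
Ly6c2: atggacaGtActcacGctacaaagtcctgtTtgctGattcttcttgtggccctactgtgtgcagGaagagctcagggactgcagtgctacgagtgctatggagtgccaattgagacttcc
Ly6c1: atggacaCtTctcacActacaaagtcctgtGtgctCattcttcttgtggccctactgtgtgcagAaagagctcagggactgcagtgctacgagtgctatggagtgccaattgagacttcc
A read from a stretch without a capital cannot be given to 1 gene of the pair by its own sequence, and how such reads were counted is not given in the sources used here. All 6 members lie on chromosome 15 within 350.01 kb in RefSeq's GRCm38.p6, the build named in the submitters' processing notes. In order they are *Ly6d* (chr15:74762056-74763567), *Ly6e* (chr15:74955025-74959904), *Ly6i* (chr15:74979534-74983434), *Ly6a* (chr15:74994877-74998031), *Ly6c1* (chr15:75044018-75048920) and *Ly6c2* (chr15:75108161-75112066), all protein-coding.

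Cells were put into 8 gates by their own CPM of genes that mark cardiac leukocytes. Monocytes and macrophages had *Csf1r*, the receptor for M-CSF, at 250 CPM or more and *Lyz2*, lysozyme, at 2000 CPM or more. Among them, cells with *Lyve1*, a marker of resident macrophages, at 100 CPM or more were set apart first, then those with *Ace*, which marks patrolling monocytes, at 50 CPM or more. The rest were split by *Ccr2*, the receptor that brings monocytes into tissue, at 1000 CPM, and *Ccr2*-positive cells with the interferon-induced *Isg15* at 500 CPM or more made the Isg15 gate. Because *Ace* came before *Ccr2*, the Ace gate also took *Ccr2*-positive cells and is not made of patrolling monocytes alone. It had *Ccr2* at 1549 CPM and the Ly6C-high monocyte gene *Plac8* at 3486 CPM, against 3008 and 749 CPM in the Ccr2 gate. The macrophage gene *C1qa* was at 462 CPM in the Ace gate and 1894 CPM in the Ccr2 gate. The Lyve1, Ccr2-low, Ccr2, Isg15 and Ace gates held 204, 1317, 1246, 177 and 267 cells, which together are the 3211 gated monocytes and macrophages. The Cd209a gate of dendritic cells held 421 cells, the B gate (*Cd79a*) 449 and the T gate (*Cd3g*) 114, of which 48, 3, 35, 0 and 28 came from the respective groups, and 1068 cells met no definition. The Isg15 gate held 3, 4, 45, 60 and 65 cells by group, so its sham values are not given by group. The limits cut through ranges rather than gaps: 712 of the 3211 gated monocytes and macrophages had *Ccr2* between 500 and 2000 CPM, and 291 had *Isg15* between 250 and 1000 CPM.

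*Ly6c2* parted the monocyte and macrophage gates widely. It was at 3472 CPM (3449 to 3495) in the Isg15 gate, 713 CPM in the Ace gate, 557 CPM in the Ccr2 gate, 166 CPM in the Ccr2-low gate and 26.8 CPM (24.8 to 29.0) in the Lyve1 gate, where a single cell held 67.3% of the reads. The Cd209a gate was at 167 CPM, beside the Ccr2-low gate, and the B gate at 20.3 CPM (18.7 to 22.1). A level of 100 CPM or more was found in 136 of 177 cells of the Isg15 gate (76.8%), 135 of 267 of the Ace gate (50.6%), 348 of 1246 of the Ccr2 gate (27.9%), 90 of 1317 of the Ccr2-low gate (6.83%) and 4 of 204 of the Lyve1 gate (1.96%). In the B gate 12 of 449 cells (2.67%) reached it. Single reads were more widespread: with each cell thinned to 20000 reads, 15.4% of B gate cells, 15.7% of Lyve1 gate cells and 17.8% of Ccr2-low gate cells had a *Ly6c2* read, and without thinning 27.2%, 39.7% and 44.5%, at median depths of 46934, 92077 and 77362 reads. Shares of cells with a read are therefore not taken as expression here, and 100 CPM is used as the level for single cells.

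The T gate also held *Ly6c2*, which is known from memory T cells as well as monocytes. Its level there was 503 CPM in WT sham, 759 CPM in WT TAC and 641 CPM in the group labelled CD8+T cell-depleted TAC, and 13 of 48, 11 of 35 and 9 of 28 cells had 100 CPM or more. Over all CD45+ cells, 109 of 5263 cells held 50% of the *Ly6c2* reads, and gated monocytes and macrophages held 76.4% of them with 61.0% of the cells.

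**Figure D1:**
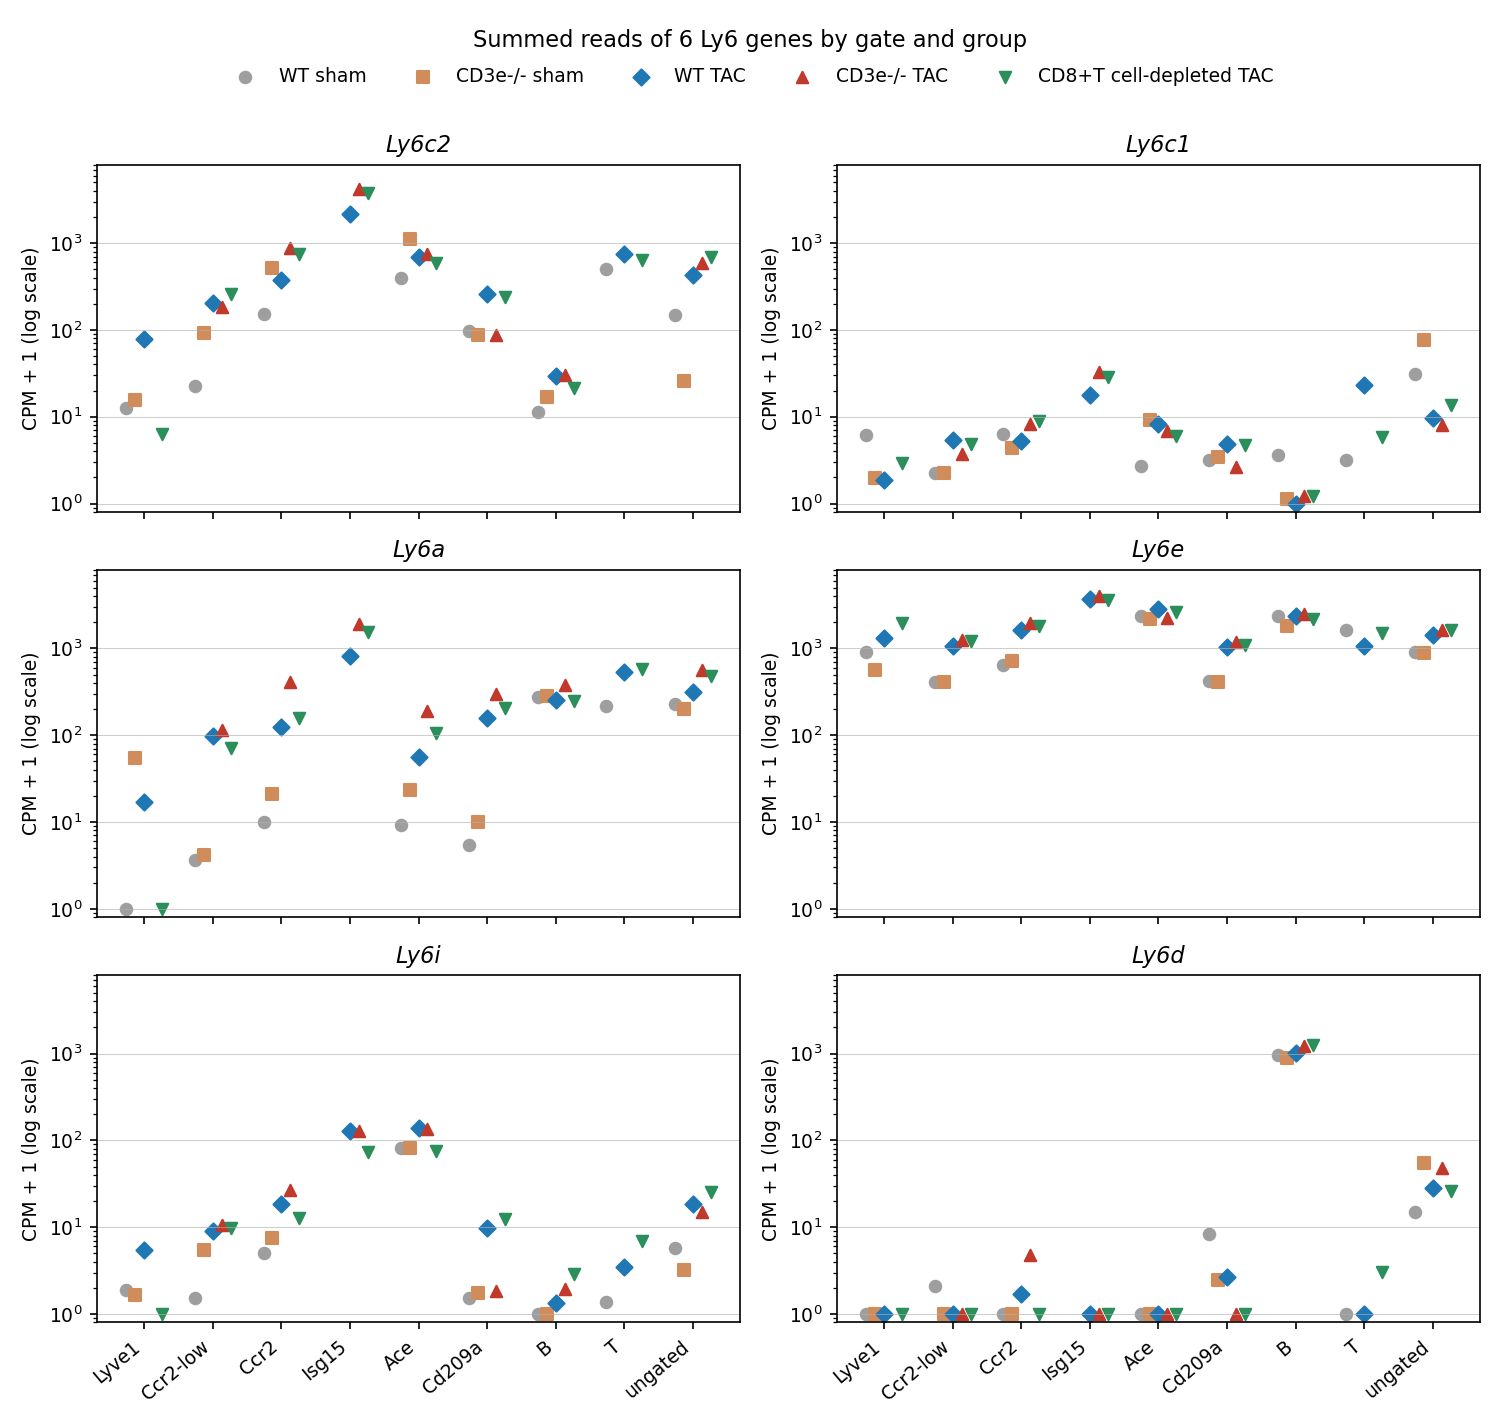
Level of each of the 6 genes (CPM + 1, log axis) in every gate, with 1 point per group; gates of a group with fewer than 20 cells are left out. *Ly6c2* and *Ly6a* are highest in the Isg15 gate, *Ly6d* is high in the B gate, at 886 to 1256 CPM, and *Ly6e* is above 400 CPM at every point.

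*Ly6c1* was low in leukocytes. Its pooled level was at most 25.7 CPM (23.7 to 27.7) in any gate, reached in the Isg15 gate, and it was 5.58 CPM in the Ccr2 gate and 2.12 CPM in the Lyve1 gate. In the gates rich in *Ly6c2* it was a small share of that gene: there were 0.739 *Ly6c1* reads per 100 *Ly6c2* reads in the Isg15 gate, 0.832 in the Ace gate, 1.00 in the Ccr2 gate and 1.61 in the T gate. The share was 0.718 to 0.793 in the TAC groups of the Isg15 gate and ranged more widely by group in the Ccr2 gate, from 0.657 in CD3e-/- sham to 3.47 in WT sham. In the 499 cells with *Ly6c2* at 1000 CPM or more, the median was 0.526 per 100. Whether these are reads of *Ly6c1* RNA or reads of the shared sequence was not tested.

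Cells with *Ly6c1* of their own were few and mostly outside the gates. *Ly6c1* reached 100 CPM in 80 cells, and in 34 of these its reads outnumbered those of *Ly6c2*, of which 23 were ungated cells. Ungated cells named by markers of endothelial cells, which carry Ly6C in mice, numbered 16 and had *Ly6c1* at 1314 CPM (1259 to 1371) with *Ly6c2* at 25.6 CPM. A single cell held 19.96% of all *Ly6c1* reads. Over ungated cells the level was 30.03, 76.4, 8.79, 6.95 and 12.5 CPM by group, higher in both sham groups than in any TAC group. The single cell just named lay in CD3e-/- sham, and without the richest cell of each group the levels were 20.05, 19.5, 6.50, 5.54 and 10.4 CPM. Of the 16 endothelial-marked cells, 7 and 4 came from WT sham and CD3e-/- sham and 3, 1 and 1 from the TAC groups.

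**Figure D2:**
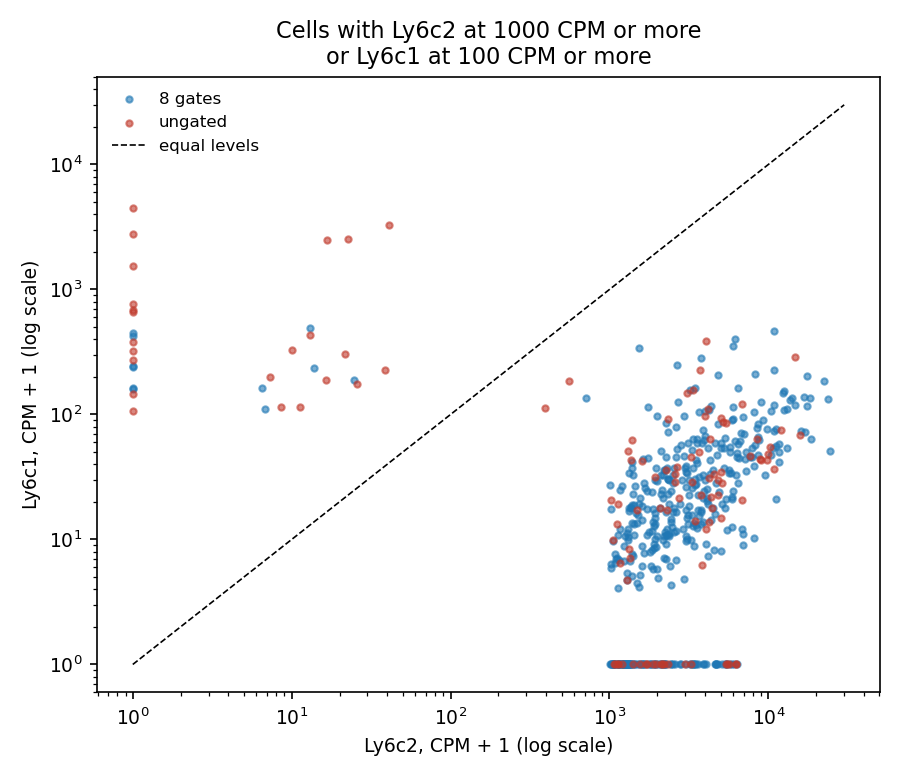
*Ly6c1* against *Ly6c2* (CPM + 1, log axes) in single cells with *Ly6c2* at 1000 CPM or more or *Ly6c1* at 100 CPM or more, coloured by whether the cell met a gate; the dashed line marks equal levels. The 499 *Ly6c2*-rich cells lie below the line, and 34 cells with *Ly6c1* at 100 CPM or more lie above it, 23 of them ungated.

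*Ly6a* encodes Sca-1, a marker of stem and progenitor cells that is also found on activated lymphocytes. In these counts it was present or absent in a cell with little between. Of all 5263 cells, 931 had 100 CPM or more and 159 lay between 50 and 200 CPM, and the share of cells with a read was 18.4% after thinning and 19.0% before it. Among gated monocytes and macrophages of WT sham, 9 cells had *Ly6a* at 10 CPM or more and 9 at 100 CPM or more. *Ly6e* likewise had 289 cells at both 10 and 50 CPM or more, while *Ly6c2* had 165 and 50. Whether the authors' error correction removed low counts of *Ly6a* was not tested. *Ly6a* was at 1464 CPM (1450 to 1479) in the Isg15 gate, 444 CPM in the T gate, 283 CPM in the B gate, 176 CPM in the Ccr2 gate, 107 CPM in the Ace gate, 69.2 CPM in the Ccr2-low gate and 12.2 CPM (10.8 to 13.7) in the Lyve1 gate. The order thus differed from that of *Ly6c2*, with the B gate above the Ccr2 gate and the Ace gate below it. Outside the gates, 60 cells with markers of group 2 innate lymphoid cells had *Ly6a* at 702 CPM (677 to 728) and the 16 endothelial-marked cells at 839 CPM, whereas 26 cells with NK markers and 35 with neutrophil markers had no read of it, which allows up to 1.46 and 2.28 CPM by the upper bounds of the intervals.

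*Ly6e*, an interferon-responsive member found on many cell types, was read in every gate. It was at 3732 CPM in the Isg15 gate, 2473 CPM in the Ace gate, 2208 CPM in the B gate, 1519 CPM in the Ccr2 gate, 1391 CPM in the T gate, 1143 CPM in the Lyve1 gate, 943 CPM in the Ccr2-low gate and 815 CPM (809 to 822) in the Cd209a gate. In the Ace gate 266 of 267 cells had 100 CPM or more, and in the Ccr2-low gate 841 of 1317 cells (63.9%). Its reads were the most evenly spread of the 6: 658 cells held 50% of them, against 110 cells for *Ly6a* and 53 for *Ly6i*.

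*Ly6i*, a close relative of *Ly6a* by sequence, was a gene of the Ace and Isg15 gates. It was at 115 CPM (112 to 119) in the Ace gate and 104 CPM (99.7 to 108) in the Isg15 gate, 15.8 CPM in the Ccr2 gate, and 6.85 CPM or lower in the Ccr2-low, Lyve1, Cd209a, B and T gates. The Ace gate, with 5.07% of the cells, held 35.4% of its reads, and 83 of 267 of these cells (31.1%) had 100 CPM or more. Within the Ace gate, with cells thinned to 20000 reads, 52 of the 98 cells with *Ly6i* also had *Ly6c2* (53.1%), close to the 58.4% of all cells of this gate. In the Ccr2 gate *Ly6c2* was found in 69 of the 87 cells with *Ly6i* (79.3%) and in 38.5% of all cells.

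*Ly6d*, which marks B lineage progenitors, was at 1037 CPM (1025 to 1049) in the B gate, where 362 of 449 cells (80.6%) had 100 CPM or more. By group the B gate level was 954, 886, 1018, 1212 and 1256 CPM. This gate held 86.2% of all *Ly6d* reads with 8.53% of the cells. Gated monocytes and macrophages had 221 reads in all, of which 70.1% were in 1 cell, and the Isg15, Ace and Lyve1 gates had none. Of the ungated cells, 45 with B cell markers were at 426 CPM, and 2 cells with plasmacytoid dendritic markers at 5570 CPM (5164 to 5999).

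The question of the design was how the members differed with TAC, with the lack of T cells and with the antibody to CD8. Over the 5 contrasts, a gene was counted when its log2 ratio, with 10 CPM added to both levels, was 1 or more in size, among the 9504 genes with 10 CPM or more in any group of gated monocytes and macrophages. *Ly6c1* and *Ly6d* were below that level in every group, so 4 members could be counted.

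In WT TAC against WT sham, all 4 countable members, *Ly6c2*, *Ly6a*, *Ly6e* and *Ly6i*, were higher by 2-fold or more, while 0.915% of the genes were. *Ly6c2* was at 99.6, 368, 403, 922 and 934 CPM in the 5 groups and thus 4.05 times as high in WT TAC as in WT sham. *Ly6a* was at 6.95, 15.7, 134, 411 and 296 CPM, which is 19.3 times, and held place 2 of the 9504 genes by log2 ratio. Its sham levels rest on few cells, with 50% of the reads in 3 cells in each sham group, and without the 5 richest cells of each group the levels were 1.77, 4.19, 96.7, 341 and 203 CPM. *Ly6e* was at 702, 729.99, 1601, 1940 and 1927 CPM, which is 2.28 times. *Ly6i* was at 7.58, 12.0, 28.2, 45.9 and 23.7 CPM, which is 3.72 times before 10 CPM are added. The sham groups were below the TAC groups for every one of these genes, although *Ly6c2* in CD3e-/- sham came close to WT TAC. Without the 5 richest cells of each group, these *Ly6c2* levels were 192 and 316 CPM. In the last 2 groups the intervals of *Ly6c2* spanned 916 to 928 and 927 to 942 CPM, and those of *Ly6e* 1931 to 1948 and 1917 to 1938 CPM. Such intervals hold the counting error of reads alone. Where they do not overlap, they do not tell groups of 1 sample apart.

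In CD3e-/- TAC against CD3e-/- sham the same 4 members were higher by 2-fold or more, with 1.38% of the genes. Here *Ly6c2* was 2.51 times as high (log2 ratio 1.30), *Ly6a* 26.1 times (4.03), *Ly6e* 2.66 times (1.40) and *Ly6i* 3.82 times (1.34). Both TAC contrasts therefore had *Ly6a* as the member of the highest ratio.

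In CD3e-/- sham against WT sham, 1 member, *Ly6c2*, was higher by 2-fold or more (3.69 times, log2 ratio 1.78), with 0.274% of the genes, and it held place 7 of 9504. This difference lay in few cells: 6 of 438 cells held 50% of the *Ly6c2* reads in CD3e-/- sham, and 9 of 531 in WT sham. The share with 100 CPM or more was 11.9% (8.995% to 15.3%) against 7.34% (5.27% to 9.90%). Without the 5 cells richest in *Ly6c2* in each group, the levels were 192 and 65.7 CPM. *Ly6e* was 1.04 times as high, and *Ly6a* at 15.7 against 6.95 CPM.

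In CD3e-/- TAC against WT TAC, 2 members, *Ly6c2* and *Ly6a*, were higher by 2-fold or more, with 0.284% of the genes. *Ly6c2* was 2.29 times and *Ly6a* 3.07 times as high, at places 20 and 15, while *Ly6e* was 1.21 times and *Ly6i* 1.63 times as high. In the group labelled CD8+T cell-depleted TAC against WT TAC the same 2 were counted, with 0.0842% of the genes, or 8 in number. *Ly6c2* was 2.32 times and *Ly6a* 2.21 times as high, and *Ly6i* was lower, at 0.841 times. The 6 other genes, chosen for naming after their values were seen, were *Prg4*, *Saa3*, *Alox15*, *Cxcl13*, *Csf1* and *Ednrb*. Both contrasts use the same WT TAC cells, so they do not count as separate support for each other. The count of this last contrast was 1 with all gate limits halved and 0 with all doubled.

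**Figure D3:**
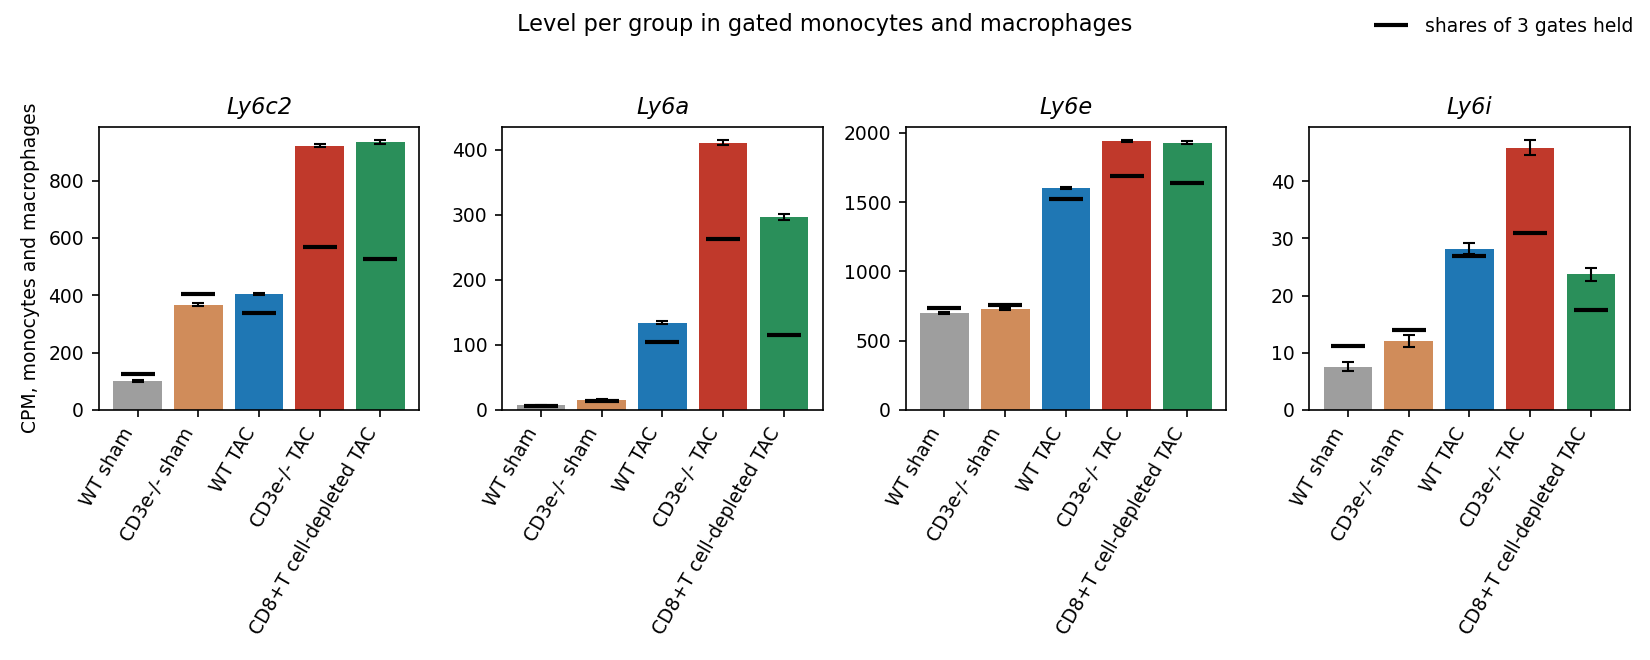
Level of 4 members per group in gated monocytes and macrophages (CPM, linear axes from 0); error bars are exact 95% Poisson intervals of the reads, and black dashes are the level over the 3 gates with 20 or more cells in every group, with their shares held equal. *Ly6c2* and *Ly6a* are highest in CD3e-/- TAC and in the group labelled CD8+T cell-depleted TAC, and in these groups the dashes lie well below the bars.

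Over all gated monocytes and macrophages, higher sums between sham and TAC came with more cells at a high level. *Ly6c2* at 100 CPM or more was found in 7.34%, 11.9%, 22.4%, 32.4% and 32.1% of gated monocytes and macrophages, and at 1000 CPM or more in 3.20%, 5.25%, 8.96%, 20.2% and 18.4%. For *Ly6a* the shares at 100 CPM or more were 1.69%, 2.28%, 10.1%, 27.2% and 17.5%. For *Ly6a* the interval was 23.8% to 30.9% in CD3e-/- TAC and 14.5% to 20.9% in the group labelled CD8+T cell-depleted TAC. For *Ly6c2* the intervals of these groups were 28.8% to 36.2% and 28.3% to 36.1%. Such intervals count cells within a group and hold no spread between samples. Whether they overlap or not, they do not tell these groups apart. For *Ly6e* the shares were 54.2%, 54.8%, 81.0%, 89.0% and 87.2%. In the Ccr2 gate, the shares with *Ly6c2* at 100 CPM or more were 14.5%, 13.9%, 28.0%, 36.6% and 37.1%. CD3e-/- sham there had a higher sum than WT sham and WT TAC, but no larger share of such cells. At 1000 CPM or more, the shares of the sham groups in this gate were 8.28% and 9.64%.

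**Figure D4:**
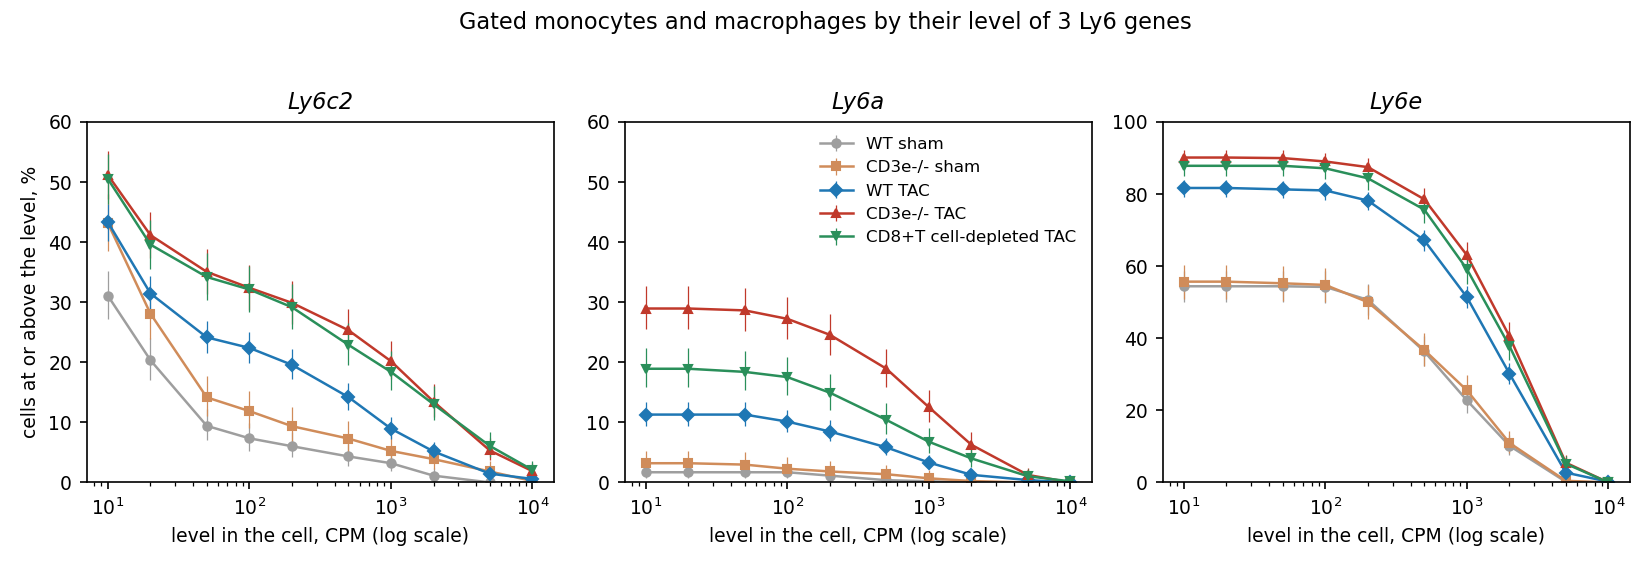
Share of gated monocytes and macrophages (%, with exact 95% intervals) whose level of *Ly6c2*, *Ly6a* or *Ly6e* is at or above the value on the x axis (CPM, log axis), by group. The *Ly6a* curves are flat below 100 CPM, and the *Ly6e* curves of the sham groups run together, at 54.2% and 54.8% at 100 CPM.

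The groups also differed in which cells were present. The Isg15 gate held 3 and 4 cells in the sham groups and made up 2.79%, 6.53% and 7.27% of all kept cells in the TAC groups, and the Ace gate made up 2.60%, 4.31%, 4.89%, 8.71% and 5.15%. The summed level of 5 resident macrophage markers in gated monocytes and macrophages was 1142 CPM in WT sham and 369 to 489 CPM in the other groups. The Ccr2-low, Ccr2 and Ace gates had 20 or more cells in every group. Over these 3 gates alone, without the Isg15 and Lyve1 gates, *Ly6c2* was at 105, 397, 335, 599.98 and 534 CPM, and with the shares of the 3 gates held equal it was at 125, 405, 337, 569.8 and 528 CPM. In CD3e-/- TAC and the group labelled CD8+T cell-depleted TAC, the lower *Ly6c2* values came mostly with leaving out gates, less with holding the shares. CD3e-/- sham was above WT TAC over these 3 gates, but this order rests on few cells. Without the 5 richest cells of each group, *Ly6c2* in CD3e-/- sham and WT TAC was at 204 and 294 CPM in the Ccr2 gate. In the Ccr2-low gate it was at 14.7 and 50.3 CPM. *Ly6a* was at 6.23, 13.3, 105, 263 and 114 CPM with the shares held, so that the group labelled CD8+T cell-depleted TAC came close to WT TAC, while CD3e-/- TAC stayed well above it. *Ly6e* was at 732, 754, 1525, 1688 and 1641 CPM under the same rule, with the step between sham and TAC kept.

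The gates were also compared one by one. In the Ccr2 gate, 3 members were higher by 2-fold or more in WT TAC than in WT sham (0.978% of genes), namely *Ly6c2* (152 and 375 CPM), *Ly6a* (8.94 and 124 CPM) and *Ly6e* (637 and 1621 CPM). In CD3e-/- mice 3 were higher in TAC (1.43% of genes): *Ly6a* (20.2 and 413 CPM), *Ly6e* (715 and 1956 CPM) and *Ly6i* (6.61 and 25.8 CPM), while *Ly6c2* was at 517 and 872 CPM. *Ly6c2* alone was counted in CD3e-/- sham against WT sham (0.336% of genes), where 4 of 166 cells held 50% of the reads. *Ly6c2* and *Ly6a* were counted in CD3e-/- TAC against WT TAC (0.168% of genes). No member was counted in the group labelled CD8+T cell-depleted TAC against WT TAC, where 0.0421% of the genes were: *Ly6c2* was at 751 against 375 CPM, just under the limit once 10 CPM were added, and *Ly6a* at 156 against 124 CPM.

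In the Ccr2-low gate, *Ly6c2*, *Ly6a* and *Ly6e* were counted in WT TAC against WT sham (1.86% of genes), *Ly6a* and *Ly6e* in CD3e-/- TAC against CD3e-/- sham (2.26% of genes), and *Ly6c2* in CD3e-/- sham against WT sham (1.25% of genes). *Ly6e* was at 412, 414, 1061, 1236 and 1215 CPM, *Ly6a* at 2.68, 3.19, 96.3, 113 and 69.4 CPM and *Ly6c2* at 21.4, 92.1, 203, 185 and 262 CPM. The *Ly6c2* values rest on very few cells: 2 of 391 cells held 50% of the reads in WT TAC and 1 of 201 cells in CD3e-/- sham, and without the 5 richest cells of each group the levels were 6.39, 14.7, 50.3, 81.1 and 106 CPM. Over the groups, the 73 cells of this gate with *Isg15* at 500 CPM or more had *Ly6c2* at 1764 CPM and the 1094 cells with no *Isg15* read had it at 34.0 CPM.

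In the Ace gate *Ly6e* was near level over the groups, at 2332, 2202, 2867, 2260 and 2613 CPM, whereas *Ly6a* was at 8.13, 22.2, 54.7, 189 and 105 CPM, with log2 ratios of 1.83 in WT TAC and 2.63 in CD3e-/- TAC against their shams. The *Ly6a* reads of WT sham in this gate were all in 1 of its 26 cells. In WT TAC against WT sham, 7.28% of the genes were higher by 2-fold or more in this gate. *Ly6c2* was at 399, 1108, 687, 743 and 588 CPM there, and 48.6% of the reads of CD3e-/- sham were in 1 cell. Without the richest cell of each group it was at 276, 583, 607, 704 and 538 CPM. In the B gate no member was counted in WT TAC against WT sham or in CD3e-/- TAC against CD3e-/- sham, where 6.31% and 4.17% of the genes were, and *Ly6e* stayed between 1823 and 2501 CPM and *Ly6a* between 244 and 373 CPM. The Cd209a gate differed from the B gate in both genes, with *Ly6e* at 422, 411, 1046, 1177 and 1088 CPM and *Ly6a* at 4.402, 8.89, 157, 293 and 205 CPM.

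*Isg15*, one of the genes most strongly induced by interferons, was used to order the cells with *Ccr2* at or above its limit. In the 973 such cells with no *Isg15* read, *Ly6e* was at 645, 686, 1417, 1583 and 1379 CPM, higher in all TAC groups than in both sham groups. *Ly6a* was at 7.28, 17.3, 78.7, 167 and 58.4 CPM in these cells and *Ly6c2* at 162, 438, 280, 452 and 284 CPM. In the group labelled CD8+T cell-depleted TAC both genes were thus near or below WT TAC in cells with no *Isg15* read. In cells with *Isg15* at 500 CPM or more, *Ly6a* was at 812 CPM in WT TAC, 1886 CPM in CD3e-/- TAC and 1545 CPM in the group labelled CD8+T cell-depleted TAC, and *Ly6c2* at 2145, 4196 and 3807 CPM. *Ly6e* was at 3673, 4062 and 3651 CPM in the same cells and did not part the TAC groups in this way. Median depth was 99801 to 116850 reads in the TAC cells with no *Isg15* read and 107388 to 144046 reads in those at 500 CPM or more. The sham cells with no *Isg15* read were shallower, at 95625 reads in WT sham and 91849 in CD3e-/- sham. The part of depth was not tested, nor whether cells with no *Isg15* read lacked a response to interferon.

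**Figure D5:**
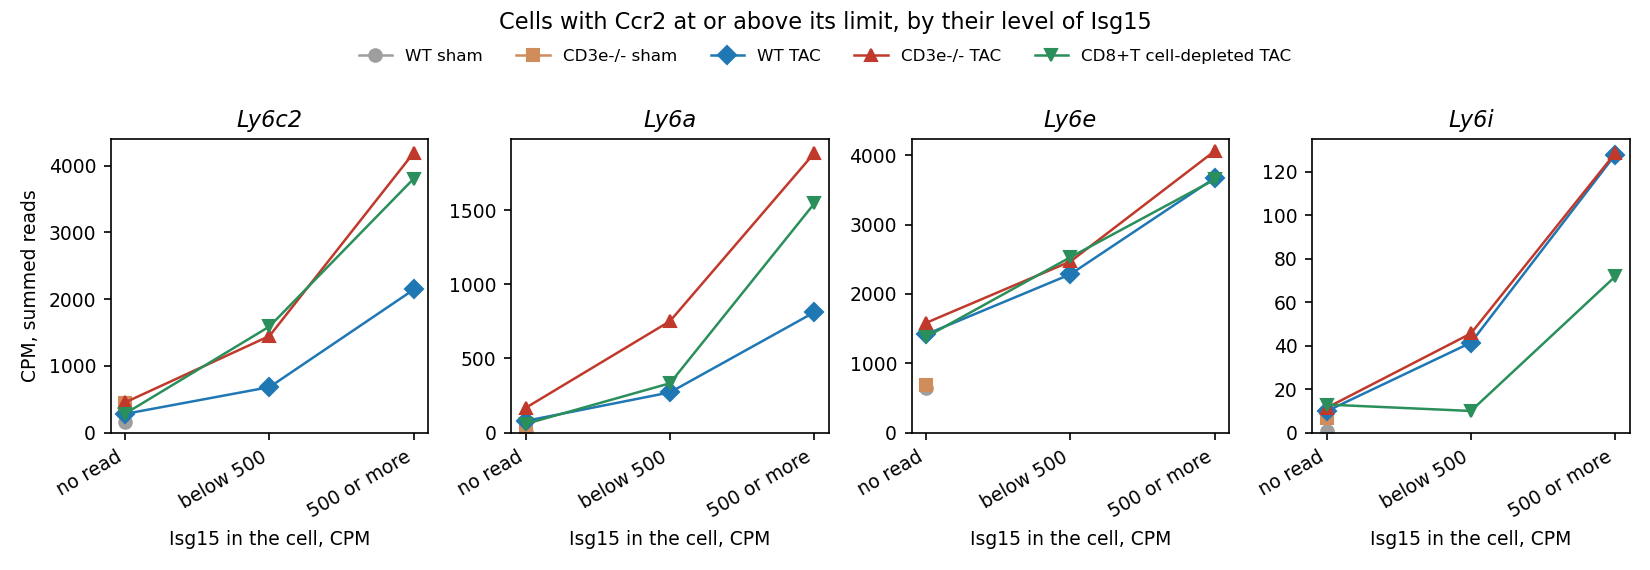
Summed level of 4 members (CPM, linear axes) in cells with *Ccr2* at or above its limit, split by the level of *Isg15* in the cell, by group; sham groups have 20 or more cells in the first class alone. In each TAC group *Ly6c2*, *Ly6a* and *Ly6e* are higher from class to class, and WT TAC lies below the other TAC groups for *Ly6c2* and *Ly6a* at 500 CPM or more.

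Members were also read together in single cells. With cells thinned to 20000 reads, 291 of the 417 gated monocytes and macrophages with *Ly6a* also had *Ly6c2* (69.8%), and these were 27.8% of the 1047 cells with *Ly6c2*. Of the cells with *Ly6a*, 414 of 417 had *Ly6e*. Spearman's rho was 0.37 for *Ly6c2* and *Ly6a*, 0.42 for *Ly6a* and *Ly6e* and 0.47 for *Ly6c2* and *Ly6e* across 3211 cells, given as a description, since cells share a library and differ in gate.

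Other gene lists give the setting. Of 20 interferon response genes, all measured at 10 CPM or more in a group, 14 were higher by 2-fold or more in WT TAC and 17 in CD3e-/- TAC against their shams, with median log2 ratios of 1.35 and 1.44, beside 0.02 and 0.04 over all genes. In the other 3 contrasts none of the 20 reached 2-fold, and the medians were 0.14, 0.28 and 0.32. Of 15 monocyte genes, 3, 2, 1, 0 and 0 were higher by 2-fold or more in the 5 contrasts in the order given above. *Plac8*, which marks Ly6C-high monocytes, had log2 ratios of 1.11 and 1.28 in the TAC contrasts. Of 34 other genes of the Ly6 and uPAR family, 18 were in the matrix and 1, *Plaur*, the urokinase receptor, reached 10 CPM in gated monocytes and macrophages, at 96.9, 168, 124, 142 and 103 CPM with no contrast past 2-fold. *Ly6g5b* was at 61.4 CPM in the T gate and *Lynx1* at 32.4 CPM in the B gate. *Ly6g*, the neutrophil antigen, was at 13.1 CPM or lower in every gate.

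Markers of other cells were also read in gated monocytes and macrophages, and some differed between groups. The 7 endothelial markers summed to 22.6 to 42.6 CPM by group, the 6 T cell markers to 3.95 to 16.8 CPM with none at 10 CPM, and the 4 NK markers to 1.64 to 5.70 CPM. The 6 neutrophil markers summed to 62.2, 169, 173, 153 and 224 CPM, lowest in WT sham, as were *Ly6c2*, *Ly6a*, *Ly6e* and *Ly6i*. The 6 fibroblast markers were at 72.2 CPM in CD3e-/- sham and 2.75 to 7.81 CPM in the other groups. In the 35 ungated cells with neutrophil markers *Ly6c2* was at 197 CPM, *Ly6e* at 1943 CPM and *Ly6i* at 57.5 CPM, and *Ly6a* had no read. The 4 markers of group 2 innate lymphoid cells summed to 115, 111, 45.8, 35.5 and 35.7 CPM, higher in the sham groups, where these Ly6 members were lower. This difference lay mostly in 1 marker, *Il1rl1*, at 96.0, 70.6, 28.3, 13.2 and 19.9 CPM. *Rora* was at 9.89, 8.18, 10.9, 11.9 and 11.1 CPM and *Areg* at 8.62, 30.5, 6.49, 10.5 and 4.41 CPM, and *Gata3* was at 2.02 CPM or lower. The 4 markers of type 1 dendritic cells summed to 374, 394, 274, 433 and 376 CPM, with 2 of them at 10 CPM in every group, the 4 of type 2 dendritic cells to 42.9 to 57.3 CPM, the 2 of plasma cells to 139 to 206 CPM, the 5 of B cells to 19.5 to 28.7 CPM and the 4 of plasmacytoid dendritic cells to 17.9 to 29.6 CPM. The part of these cell types in the values above was not tested.

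For each member the genes of the most similar profile were sought over 40 profiles of a gate in a group with 20 or more cells, among 7275 genes with 50 CPM or more in a profile, by Pearson's r of log2 values. The nearest to *Ly6c2* were *Slfn1* (0.90), a Schlafen gene, *Pkm* (0.88), which encodes pyruvate kinase, and *Actr3-ps* (0.88). Those to *Ly6a* were *Sp110* (0.85), *H2-T22* (0.78) and *Tap1* (0.78), the last a transporter of antigen peptides, and those to *Ly6e* included *Sp100* and *Ddx58* (0.80 each). *Sp110*, *Sp100*, *Tap1* and *Ddx58* are known to respond to interferons. *Cd177* (0.89), *Gm5150* (0.89) and *Gm9733* (0.87) were nearest to *Ly6i*. Near *Ly6d* were the B cell genes *Iglc2* and *Ms4a1* (1.00 each). The genes nearest to *Ly6c1* were less alike, with *Pcp4l1*, *Ptgfrn* and *Ndrg1* at 0.76 each. Among the members the highest r was 0.77, between *Ly6c2* and *Ly6i*, and that between *Ly6a* and *Ly6e* was 0.61. The profiles share 1 library and differ in depth, so r is given as a description.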

How the data were processed

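Male mice of the 5 groups gave 1 pooled, hashtagged cDNA library. The deposited matrix holds raw counts, which are reads per gene and cell that the authors corrected for errors and filtered at an inflection point, without normalization; cutadapt 2.10, Bowtie2 2.4.2 and GRCm38 are named in the submitters' processing notes. Groups were read from the deposited hashtag notes. Of 5363 columns, 40 doublets called by the authors and 8 without hashtag were not used. The 5263 cells kept had at least 500 genes each and no more than 0.4 of their reads on mitochondrial genes. Gates took *Cd79a* at 500 CPM, *Cd3g* at 50 CPM and *Cd209a* at 100 CPM beside the limits given above, with B and T gates first and *Csf1r* below its limit in both. Counts were summed per gate and group and divided by their total. The depth per group was 91899777 to 208758777 reads. With 1 sample per group, no p-value was computed. Members and gene lists were chosen with earlier results of these data known. Named genes were the members, the listed genes and the 3 nearest profiles per member, of which some are not reported here. On simulated data, 100% of 200 changed genes among 3436 were recovered within 0.2 of their log2 ratio. The draws held Poisson error only, with no spread between cells, for genes at 50 CPM or more in WT sham. They therefore check the arithmetic alone and do not cover *Ly6a* and *Ly6i*, which were below that level. Alternatives covered gate limits, scaling, added CPM, filters and single cells. Python 3.11.15, numpy 2.4.6, scipy 1.17.1, pandas 2.3.3, Biopython 1.88 and matplotlib 3.10.9 were used.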

Additional observations from a re-analysis of the deposited data

Results flagged for a closer look

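In the Cd209a gate, the difference of *Ly6c2* with TAC had opposite signs in WT and CD3e-/- mice, though it was near 0 in the latter. The log2 ratio was 1.34 in WT TAC against WT sham (95.4 and 257 CPM) and -0.00486 in CD3e-/- TAC against CD3e-/- sham (86.5 and 86.2 CPM), and the difference was not tested, since each group was 1 sample. The reads lay in few cells: 50% of them were in 4 of 132 cells in WT TAC and in 2 of 43 cells in CD3e-/- TAC. Without the 5 richest cells of each group, the levels were 16.9 and 107 CPM in WT mice and 6.32 and 6.64 CPM in CD3e-/- mice.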

How the results depend on the processing

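No paired analysis was possible because each group was 1 sample. The alternatives without the Isg15 gate, with cells lacking an *Isg15* read, and without the 5 richest cells or the richest cell per group were chosen after seeing the data. The count of members past 2-fold in monocytes and macrophages, which was 4, 4, 1, 2 and 2, was within 1.5 times of this except as follows. Halving the gate limits gave 1 in the contrast of the group labelled CD8+T cell-depleted TAC with WT TAC, and doubling them gave 0. Adding 1 CPM in place of 10 gave 2 (*Ly6c2* and *Ly6a*) in CD3e-/- sham against WT sham. Without the Isg15 gate the count was 1 (*Ly6a*) in CD3e-/- TAC against WT TAC and 0 in the CD8-labelled contrast. In cells with no *Isg15* read it was 2 in WT TAC and 2 in CD3e-/- TAC against their shams, and 0 in both contrasts with WT TAC, where the CD8-labelled contrast changed sign, to log2 ratios of -0.0463 for *Ly6c2* and -0.28 for *Ly6a*. Without the 5 richest cells it was 1 in the CD8-labelled contrast. The cause was not tested beyond what leaving out these cells shows. Over 10 alternatives, the log2 ratio of *Ly6a* was 2.22 to 4.08 in WT TAC and 2.38 to 4.63 in CD3e-/- TAC against sham, that of *Ly6e* 0.91 to 1.26 and 1.05 to 1.52, and that of *Ly6c2* 1.12 to 2.16 and 0.28 to 1.96. The gate of the highest level was the same for *Ly6c2*, *Ly6a*, *Ly6e* and *Ly6d* with limits halved or doubled or with the mean of single cells, while for *Ly6i* doubled limits put the Isg15 gate first and for *Ly6c1* halved limits put ungated cells first. Depth limits the sham values of the Isg15 gate, with 3 and 4 cells, and *Ly6c1* and *Ly6d* in monocytes and macrophages.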

Other observations

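*Ly6a2*, a further family gene that lies beside *Ly6c2* and is in no list here, was looked at after its values were seen. It was at 75.1 CPM (71.7 to 78.5) in the Isg15 gate, 47.7 CPM in the Ace gate, 33.2 CPM in the Ccr2 gate and 5.40 CPM in the Ccr2-low gate, and had no read in the B gate, which allows up to 0.135 CPM if the error correction set no low counts to 0. In gated monocytes and macrophages it was at 12.1, 34.0, 17.4, 27.5 and 41.1 CPM by group. In the Ccr2 gate it was 1 of the 4 genes at 2-fold or more in the group labelled CD8+T cell-depleted TAC against WT TAC, at 56.2 against 22.5 CPM.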
